A study of Homo sapiens with 5 samples.

Results

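Small nucleolar RNAs other than U3 were followed through 5 total RNA libraries of MDA-MB-231 cells, an established triple-negative breast cancer line. They were taken as every gene of the deposited table whose symbol starts with SNORA or SNORD, without the U3 copies named SNORD3 and a letter. The rule found 32 of the 4202 genes, 10 of the box C/D class (SNORD) and 22 of the box H/ACA class (SNORA). The cells had 4 h of bortezomib, of CGI-1746 plus LU-102, of LU-102, of CGI-1746, or of no inhibitor (mock). Bortezomib is a proteasome inhibitor that served the study as its control for proteasome inhibition, CGI-1746 is an inhibitor of the kinase BTK, and LU-102 is called an inhibitor by the labels and is known as a compound directed at the proteasome. No source used here gives doses. Each condition has 1 library of 1 cell line, which leaves all values without a replicate error and all differences between conditions untested.

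Box C/D RNAs carry a guide that base-pairs with a target RNA and brings the methyltransferase fibrillarin to a ribose, and box H/ACA RNAs bring the pseudouridine synthase dyskerin to a uridine. Most targets lie in ribosomal RNA in the nucleolus, some lie in spliceosomal RNA or transfer RNA, and a few members serve the cutting of the ribosomal RNA precursor. In human cells most of these RNAs are cut out of introns of a host gene after splicing, so their level depends on the making of the host transcript, on their own processing and on their stability.

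The level used throughout is the normalized signal that the authors deposited, which behaves as a read count per base of the gene, scaled by 1 factor in each library. For all 32 members it was turned back into reads, and each lay within 0.1 of a whole number of units of 0.5 reads in each of the 5 libraries. A difference is given as a log2 ratio of level + 1, and a gene was counted as 2-fold higher or lower when this ratio reached 1 or -1 and the level was at least 1 in either library. Ratios of levels carry exact Clopper-Pearson 95% intervals from the reads. These cover counting error only and not the spread between cultures. Fewer cells and less RNA per cell cannot be told apart in such bulk samples.

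Across all genes of the table, the median log2 ratio to mock was -0.98 with bortezomib and lay between -0.06 and 0.03 with the other 3 treatments. The mesenchymal marker VIM had a level of 18.3 with bortezomib, of 82.1 to 90.3 with the other treatments and of 92.1 in mock. All 10 measured genes of the list of cell identity markers were detected in each library. They include the epithelial keratins KRT8, at 2.02 in mock, and KRT18, at 35.5 in mock. With bortezomib SNAI2, CAV1, MSN and KRT8 lay under a level of 1, at 0.814, 0.895, 0.859 and 0.720. In the bortezomib library 2231 genes reached a level of 1, against 4161 in mock and 4170 to 4177 with the other treatments. The 7 others of the list, among them the blood and endothelial markers, are absent from the table. If the levels are RPKM, which no source states, the bortezomib library held about 18598100 reads, and the other treated libraries and mock held 16839300 to 17080800.

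The sequences below are those of the members that the comparisons turn on: the highest and lowest of each class with bortezomib as far as a sequence was at hand, those that passed 2-fold with another treatment, the second most abundant member with bortezomib, and the SNORA73 pair. SNORD97, SNORA73A and SNORA73B were chosen after their values were seen. They are transcripts of GENCODE 29 on GRCh38, 5′ to 3′. Capitals mark the C box (TGATGA within the first 25 bases), the D box (CTGA within the last 15 bases) or the ACA triplet within the last 9 bases, each searched on the transcript strand alone. SNORD17 lies at chr20:17962710-17962946 on the minus strand, SNORD97 at chr11:10801467-10801608 on the minus strand, SNORA71D at chr20:38433865-38433998 on the minus strand and SNORA71A at chr20:38427309-38427442 on the minus strand. SNORA7B lies at chr3:129397210-129397348 on the minus strand, SNORA38 at chr6:31623079-31623210 on the plus strand, SNORA81 at chr3:186786675-186786852 on the plus strand and SNORA23 at chr11:9428773-9428954 on the plus strand. SNORA73A lies at chr1:28507366-28507571 on the plus strand and SNORA73B at chr1:28508559-28508762 on the plus strand.
SNORD17: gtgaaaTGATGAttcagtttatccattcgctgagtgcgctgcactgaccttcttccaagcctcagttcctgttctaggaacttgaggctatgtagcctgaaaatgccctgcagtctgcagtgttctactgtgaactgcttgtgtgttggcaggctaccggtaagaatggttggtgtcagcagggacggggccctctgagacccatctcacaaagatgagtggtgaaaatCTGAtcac
SNORD97: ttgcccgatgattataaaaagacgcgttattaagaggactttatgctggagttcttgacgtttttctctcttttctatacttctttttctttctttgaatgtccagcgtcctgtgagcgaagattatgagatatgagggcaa
SNORA71D: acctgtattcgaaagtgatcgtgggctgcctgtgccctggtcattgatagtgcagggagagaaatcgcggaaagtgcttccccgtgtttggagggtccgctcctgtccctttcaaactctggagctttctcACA
SNORA71A: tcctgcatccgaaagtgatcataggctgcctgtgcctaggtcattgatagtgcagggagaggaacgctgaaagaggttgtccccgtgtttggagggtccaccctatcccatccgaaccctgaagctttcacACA
SNORA7B: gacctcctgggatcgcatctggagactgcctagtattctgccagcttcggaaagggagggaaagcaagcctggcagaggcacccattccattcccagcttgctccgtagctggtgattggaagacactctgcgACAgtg
SNORA38: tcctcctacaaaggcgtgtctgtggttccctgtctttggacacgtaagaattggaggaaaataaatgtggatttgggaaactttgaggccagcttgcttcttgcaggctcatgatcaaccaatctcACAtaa
SNORA81: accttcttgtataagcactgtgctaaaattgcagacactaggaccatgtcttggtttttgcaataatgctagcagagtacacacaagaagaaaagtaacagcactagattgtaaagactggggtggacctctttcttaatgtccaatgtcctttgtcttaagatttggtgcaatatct
SNORA23: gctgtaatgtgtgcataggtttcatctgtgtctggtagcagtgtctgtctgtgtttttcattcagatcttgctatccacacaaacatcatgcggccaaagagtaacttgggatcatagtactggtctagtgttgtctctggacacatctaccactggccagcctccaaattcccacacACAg
SNORA73A: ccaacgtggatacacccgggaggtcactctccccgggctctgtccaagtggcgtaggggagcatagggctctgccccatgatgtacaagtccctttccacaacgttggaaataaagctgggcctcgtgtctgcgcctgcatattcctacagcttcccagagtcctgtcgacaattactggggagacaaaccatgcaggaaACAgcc
SNORA73B: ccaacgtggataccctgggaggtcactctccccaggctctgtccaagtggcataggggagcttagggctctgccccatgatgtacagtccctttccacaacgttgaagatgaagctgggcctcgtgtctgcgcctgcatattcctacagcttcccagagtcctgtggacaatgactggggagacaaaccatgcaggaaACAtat

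The boxes followed the class names with few exceptions. Of the 22 SNORA members 20 had the ACA triplet in its window, against 127 of all 142 SNORA transcripts of GENCODE 29, or 89.4%, and against 5.26% of its 266 SNORD transcripts. The SNORA members with no match were SNORA81 and SNORA40B. Of the 6 SNORD members whose sequence was at hand, 4 had a C box and a D box in their windows, as did 69.2% of all SNORD transcripts. SNORD10 had the D box alone, and SNORD97 had neither. SNORD133, SNORD140, SNORD141A and SNORD141B are named only.

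The box C/D members were long for their class. They spanned 105 bp (SNORD141A) to 237 bp (SNORD17) with a median of 144 bp, while the 344 SNORD genes of RefSeq had a median of 80 bp and 298 of them were under 100 bp. The box H/ACA members spanned 128 to 207 bp with a median of 138 bp, close to the median of 134 bp over the 182 SNORA genes of RefSeq. RNA was purified on a column kit that favours longer RNAs, and its part in which members reached the table was not tested.

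Near-identical members occur in pairs or trios, and the way the authors' counting split reads between them is not known. SNORA22 and SNORA22C were 98.5% identical over their alignment, SNORA73A and SNORA73B 93.2%, SNORA71C and SNORA71D 86.6%, SNORA38 and SNORA38B 85.1%, and SNORA71A was 83.1% identical to either of the other SNORA71 members. SNORD15A and SNORD15B shared 67.5%. SNORD141A and SNORD141B, on chromosomes 9 and 5, had the same level in every library, with counts in steps of 0.5 reads, and stand for 1 measurement.

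In mock, SNORA73B was the most abundant member at a level of 152.7 and 527 reads, followed by SNORA73A at 100.7 and SNORA63 at 62.5. The SNORA73 RNAs, also called U17, serve the processing of small-subunit ribosomal RNA instead of guiding a modification, and SNORA63 is the RNA called E3. SNORD17, a guide of ribose methylation in large-subunit ribosomal RNA, stood at 52.1, SNORD133 at 37.9 and SNORD15B, a further large-subunit guide, at 31.7. The lowest level in mock was 0.401, that of SNORD15A on 1 read. In all, 17 of the 32 members had fewer than 10 reads in mock, and 8 had fewer than 10 with bortezomib.

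**Figure D1:**
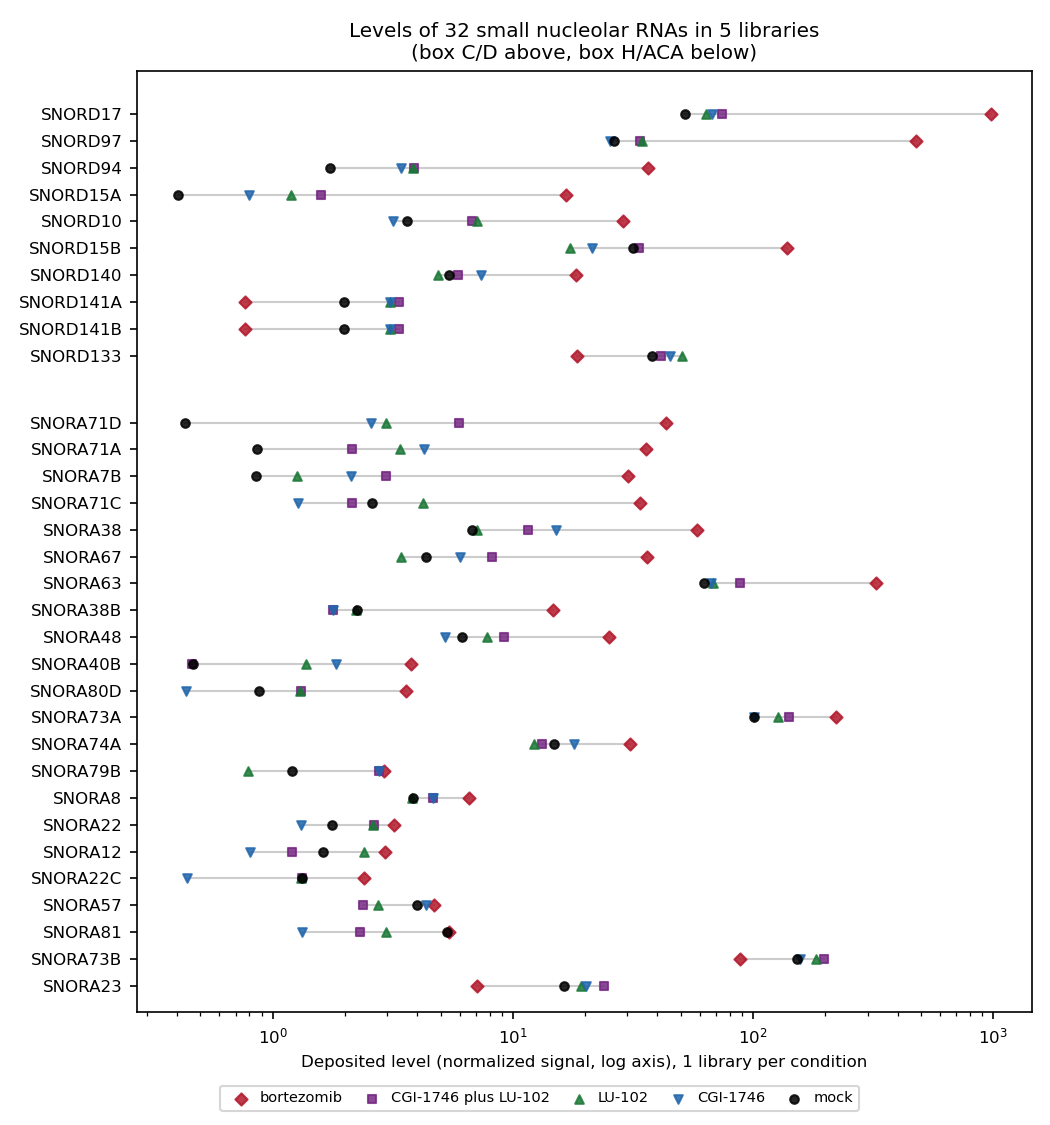
Deposited level (normalized signal, log axis) of each of the 32 small nucleolar RNAs, 1 marker per library, with box C/D members above box H/ACA members and a grey line over the range of the 5 libraries. The bortezomib library is the highest of the 5 for 27 members and the lowest for 5, while the other treated libraries and mock lie close together for the abundant members.

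Bortezomib against mock showed the widest differences. Most of the small nucleolar RNAs were more abundant with bortezomib, SNORD17 18.9-fold and SNORD97 18.2-fold, while the messenger RNAs of the table were mostly less abundant. Of the 32 members 19 were 2-fold or more higher, against 1.38% of the 4189 genes compared, and 2 were 2-fold or more lower, against 48.1%. The median over the members was 1.65 on the log2 scale, against -0.98 over all genes and -0.99 over protein-coding genes. The bortezomib library had the highest level of the 5 libraries for 27 members. It had the lowest for SNORA23, SNORA73B, SNORD133, SNORD141A and SNORD141B.

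The shift of the whole table bears on how these counts read. Set against the median gene, 27 members were 2-fold or more higher, where 7.52% of all genes were, and none was 2-fold or more lower, where 7.83% were. The 4 members SNORA22C, SNORA40B, SNORA80D and SNORD15A had levels that summed over the other 4 libraries to less than 5.04, the smallest sum over 5 libraries in the table, so without their bortezomib level they would lie under every listed gene. Among the 28 others, 16 passed 2-fold upward and 2 downward. The share of all genes was not taken after the same exclusion, so these counts have no background of their own.

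Among the box C/D members 7 of 10 were 2-fold or more higher with bortezomib and 1 was lower, against 1.38% and 48.1% of all genes. The class median of the log2 ratio was 2.39. SNORD17 had a level of 983.0 with bortezomib, 74.0 with CGI-1746 plus LU-102, 63.7 with LU-102, 67.3 with CGI-1746 and 52.1 in mock. The bortezomib library alone stood apart, with 4333 reads against 208 in mock and a ratio of 18.9 (95% interval 16.4 to 21.8). SNORD97, a guide of ribose methylation in a transfer RNA for methionine, had 478.6 with bortezomib, 34.0 with CGI-1746 plus LU-102, 34.6 with LU-102, 25.3 with CGI-1746 and 26.3 in mock. Its ratio to mock with bortezomib was 18.2 (14.1 to 23.8), near that of SNORD17. SNORD97 overlaps an exon of a retained-intron transcript of its host gene EIF4G2, and reads of unspliced host RNA were not told apart from its own.

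SNORD94, which guides a methylation in the spliceosomal U6 RNA, had 36.5 with bortezomib, 3.87 with CGI-1746 plus LU-102, 3.85 with LU-102, 3.44 with CGI-1746 and 1.73 in mock. With 93 reads against 4 in mock the ratio was 21.1 (7.95 to 78.9). SNORD10, also linked to U6 methylation, had 28.7 with bortezomib, 6.76 with CGI-1746 plus LU-102, 7.12 with LU-102, 3.18 with CGI-1746 and 3.61 in mock, a ratio of 7.95 (3.98 to 18.0) with bortezomib. Both were thus measured on few reads outside the bortezomib library.

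SNORD15A and SNORD15B are large-subunit guides from introns of RPS3, the gene of a ribosomal protein. SNORD15B had 138.5 with bortezomib, 33.5 with CGI-1746 plus LU-102, 17.2 with LU-102, 21.4 with CGI-1746 and 31.7 in mock, a ratio of 4.36 (3.41 to 5.64) with bortezomib. SNORD15A had 16.7 with bortezomib, 1.59 with CGI-1746 plus LU-102, 1.19 with LU-102, 0.795 with CGI-1746 and 0.401 in mock. Its 46 reads with bortezomib stood against 1 in mock, a ratio of 41.6 with an interval from 7.11 to 1680. SNORD15A overlaps an exon of a protein-coding transcript of RPS3, which itself stood at -1.10 with bortezomib against mock on the log2 scale.

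Of the remaining box C/D members SNORD140 had 18.4 with bortezomib, 5.88 with CGI-1746 plus LU-102, 4.88 with LU-102, 7.35 with CGI-1746 and 5.44 in mock, a ratio of 3.37 (1.70 to 7.28) with bortezomib. SNORD133 went the other way. It had 18.4 with bortezomib, 41.4 with CGI-1746 plus LU-102, 50.4 with LU-102, 45.2 with CGI-1746 and 37.9 in mock, and the bortezomib library was the lowest of the 5 at a ratio of 0.486 (0.361 to 0.649). Its log2 ratio of -1.004 was just past the threshold and was -0.02 when set against the median gene. SNORD141A and SNORD141B had 0.768 with bortezomib, 3.36 with CGI-1746 plus LU-102, 3.07 with LU-102, 3.08 with CGI-1746 and 1.98 in mock, on 1.5 reads with bortezomib against 3.5 in mock, too few to tell a direction.

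Among the 22 box H/ACA members 12 were 2-fold or more higher with bortezomib and 1 was lower, against 1.38% and 48.1% of all genes. The log2 ratios of the class ran from -1.10 to 4.95 with a median of 1.21. The 3 members of the SNORA71 group, guides for small-subunit ribosomal RNA from introns of SNHG17, were all among the higher. SNORA71D had 43.2 with bortezomib, 5.97 with CGI-1746 plus LU-102, 2.97 with LU-102, 2.56 with CGI-1746 and 0.430 in mock. Its 111 reads against 1 in mock gave the highest ratio of all members, 100.5, with an interval from 17.7 to 4005. SNORA71A had 35.8 with bortezomib, 2.13 with CGI-1746 plus LU-102, 3.39 with LU-102, 4.26 with CGI-1746 and 0.861 in mock, a ratio of 41.6 (11.2 to 349.1) with bortezomib. SNORA71C had 33.9 with bortezomib, 2.13 with CGI-1746 plus LU-102, 4.24 with LU-102, 1.28 with CGI-1746 and 2.58 in mock, a ratio of 13.1 (5.79 to 36.8) with bortezomib. The bortezomib levels of the trio were alike, at 33.9 to 43.2, and their reads in mock were 1 to 6.

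SNORA7B, a large-subunit guide, had 30.2 with bortezomib, 2.96 with CGI-1746 plus LU-102, 1.26 with LU-102, 2.12 with CGI-1746 and 0.854 in mock, with 78 reads against 2 and a ratio of 35.3 (9.45 to 296.7) with bortezomib. SNORA38 had 58.7 with bortezomib, 11.6 with CGI-1746 plus LU-102, 7.10 with LU-102, 15.2 with CGI-1746 and 6.75 in mock, a ratio of 8.69 (5.10 to 15.9) with bortezomib. Its copy SNORA38B, in an intron of NOL11, had 14.7 with bortezomib, 1.78 with CGI-1746 plus LU-102, 2.22 with LU-102, 1.78 with CGI-1746 and 2.25 in mock, a ratio of 6.52 (2.55 to 21.3) with bortezomib. Both copies were thus highest with bortezomib, by ratios whose intervals overlap.

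SNORA67, a guide for small-subunit ribosomal RNA, and SNORA48, for the large subunit, lie with SNORD10 in EIF4A1, the gene of a translation initiation helicase. SNORA67 had 36.1 with bortezomib, 8.16 with CGI-1746 plus LU-102, 3.42 with LU-102, 6.01 with CGI-1746 and 4.33 in mock, a ratio of 8.33 (4.33 to 17.9) with bortezomib. SNORA48 had 25.1 with bortezomib, 9.15 with CGI-1746 plus LU-102, 7.81 with LU-102, 5.23 with CGI-1746 and 6.16 in mock, a ratio of 4.07 (2.26 to 7.87) with bortezomib. All 3 RNAs of this gene overlap an exon of one of its retained-intron or other transcripts, and reads of unspliced host RNA were not told apart from theirs. EIF4A1 itself stood at -2.28 with bortezomib on the log2 scale.

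SNORA63 had 324.2 with bortezomib, 88.5 with CGI-1746 plus LU-102, 68.1 with LU-102, 67.1 with CGI-1746 and 62.5 in mock, and its 814 reads against 142 gave a ratio of 5.19 (4.34 to 6.25) with bortezomib. SNORA81, which shares the host gene EIF4A2 with it, gave no such ratio. It had 5.44 with bortezomib, 2.31 with CGI-1746 plus LU-102, 2.96 with LU-102, 1.32 with CGI-1746 and 5.34 in mock, a ratio of 1.02 (0.490 to 2.14) with bortezomib. The level of SNORA63 over that of SNORA81 was 59.6 with bortezomib (37.5 to 101.1) and 11.7 in mock (6.96 to 21.0). It was 38.2 with CGI-1746 plus LU-102 (18.2 to 96.3), 23.0 with LU-102 (11.8 to 51.2) and 50.8 with CGI-1746 (19.4 to 188.7). These last intervals overlap that of bortezomib and that of mock. Both RNAs overlap an exon of a retained-intron transcript of EIF4A2, and reads of unspliced host RNA were not told apart from theirs.

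The SNORA73 pair, from a region shared by SNHG3 and RCC1, parted with bortezomib. SNORA73A had 222.3 with bortezomib, 141.0 with CGI-1746 plus LU-102, 127.6 with LU-102, 100.6 with CGI-1746 and 100.7 in mock, a ratio of 2.21 (1.95 to 2.51) with bortezomib. SNORA73B had 88.1 with bortezomib, 196.9 with CGI-1746 plus LU-102, 183.1 with LU-102, 157.6 with CGI-1746 and 152.7 in mock, a ratio of 0.577 (0.502 to 0.663) with bortezomib. Set against the median gene, the log2 ratio of SNORA73B was 0.19 and no longer below 0, while that of SNORA73A was 2.12. The level of SNORA73A over that of SNORA73B does not depend on such a scaling. It was 2.52 with bortezomib (2.22 to 2.87), 0.716 with CGI-1746 plus LU-102, 0.697 with LU-102, 0.639 with CGI-1746 and 0.660 in mock (0.575 to 0.756). SNORA73A overlaps a retained-intron transcript of SNHG3 and SNORA73B does not, and with 93.2% identity the part of the counting in this difference was not tested.

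SNORA74A, the large-subunit guide called U19, had 30.6 with bortezomib, 13.2 with CGI-1746 plus LU-102, 12.3 with LU-102, 17.9 with CGI-1746 and 14.8 in mock. Its ratio to mock with bortezomib was 2.06 (1.47 to 2.94), and its log2 ratio of level + 1, 0.998, was just under the threshold. SNORA23, a large-subunit guide in IPO7, had 7.11 with bortezomib, 24.0 with CGI-1746 plus LU-102, 19.2 with LU-102, 20.2 with CGI-1746 and 16.3 in mock. It was the lowest H/ACA member with bortezomib at 0.435 (0.259 to 0.714), or -1.10 on the log2 scale, and stood at -0.12 when set against the median gene.

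The other box H/ACA members were measured on few reads. SNORA40B had 3.78 with bortezomib, 0.460 with CGI-1746 plus LU-102, 1.37 with LU-102, 1.84 with CGI-1746 and 0.464 in mock, on 9 reads against 1 in mock. SNORA80D had 3.58 with bortezomib, 1.31 with CGI-1746 plus LU-102, 1.30 with LU-102, 0.436 with CGI-1746 and 0.880 in mock, and its interval of 0.843 to 38.8 holds no change although it passed 2-fold. SNORA8 had 6.58 with bortezomib, 4.66 with CGI-1746 plus LU-102, 3.79 with LU-102, 4.66 with CGI-1746 and 3.84 in mock. The 5 others, SNORA12, SNORA22, SNORA22C, SNORA57 and SNORA79B, had ratios to mock of 1.18 (SNORA57) to 2.41 (SNORA79B) with bortezomib, and the interval of each held 1.

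**Figure D2:**
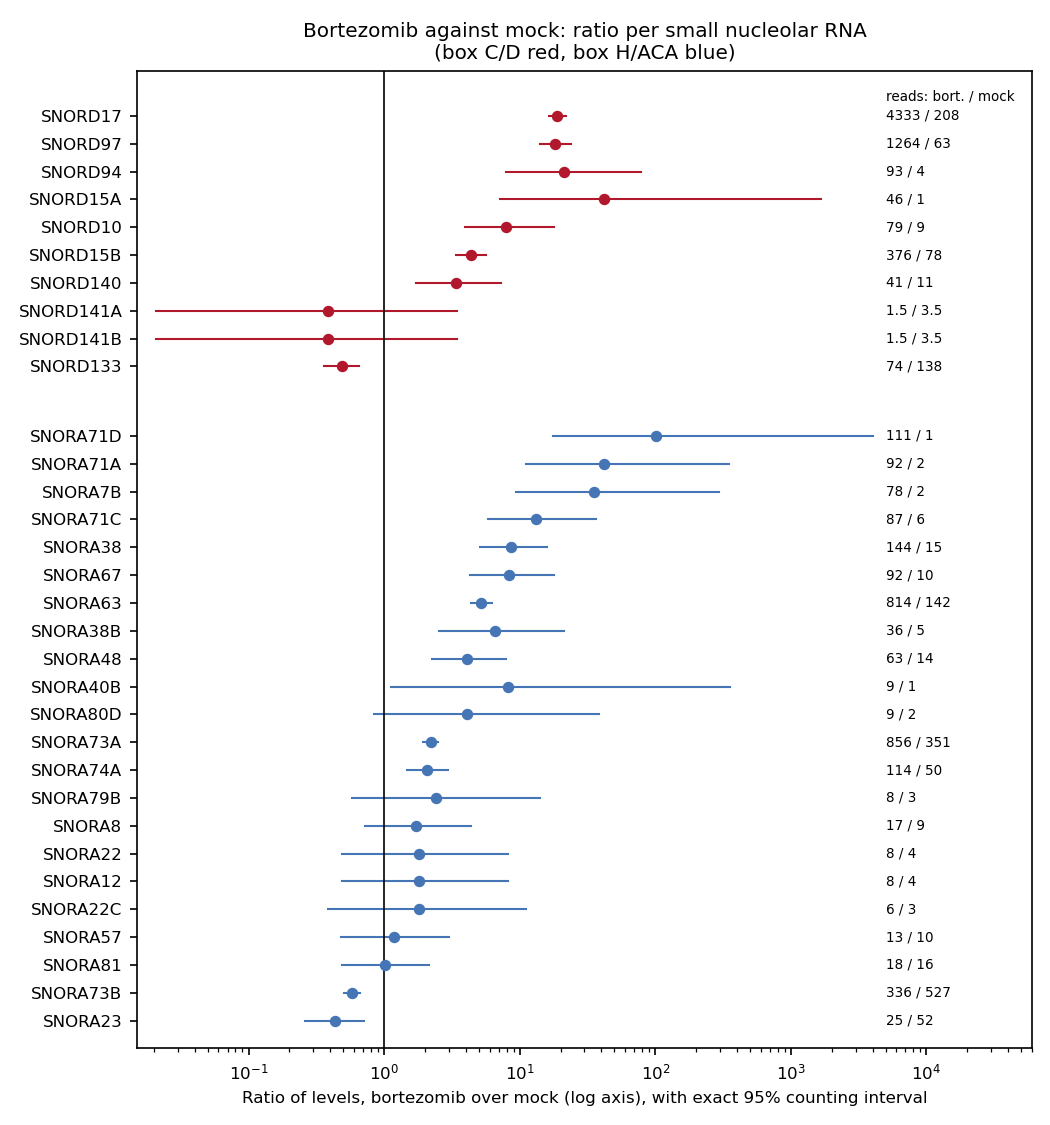
Ratio of levels, bortezomib over mock (log axis), with exact 95% intervals for counting error, for box C/D members in red and box H/ACA members in blue, and the reads behind each ratio at the right. The interval lies above 1 for 19 members and below 1 for SNORD133, SNORA73B and SNORA23.

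Judged by reads alone, the interval of the ratio lay above 1 for 19 members and below 1 for 3. It did so for 45.8% and 20.8% of the 48 short RNAs of the table whose reads could be recovered. All 32 members are among these 48, so such shares, here and below, are largely their own. They give no separate background. Summed over the members, with the SNORD141 pair counted once, reads came to 9251.5 with bortezomib and 1744.5 in mock, a ratio of 4.80 (4.56 to 5.06) after the factors of the libraries. The box C/D sum differed more, at 11.1 (10.1 to 12.1), than the H/ACA sum, at 2.17 (2.03 to 2.32). The box C/D ratio rests on SNORD17 and SNORD97, a pair that was left out after the data were seen. The box C/D reads then came to 710.5 with bortezomib and 244.5 in mock, a ratio of 2.63 (2.27 to 3.06). In the H/ACA sum, SNORA73A and SNORA73B held 351 and 527 of 1229 reads in mock. With bortezomib they held 856 and 336 of 2944, and the H/ACA sum was not taken without them. Box C/D RNAs made up 68.2% of the members' reads with bortezomib, 28.6% to 31.0% with the other treatments and 29.6% in mock. SNORD17 alone held 46.8% of them with bortezomib.

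**Figure D3:**
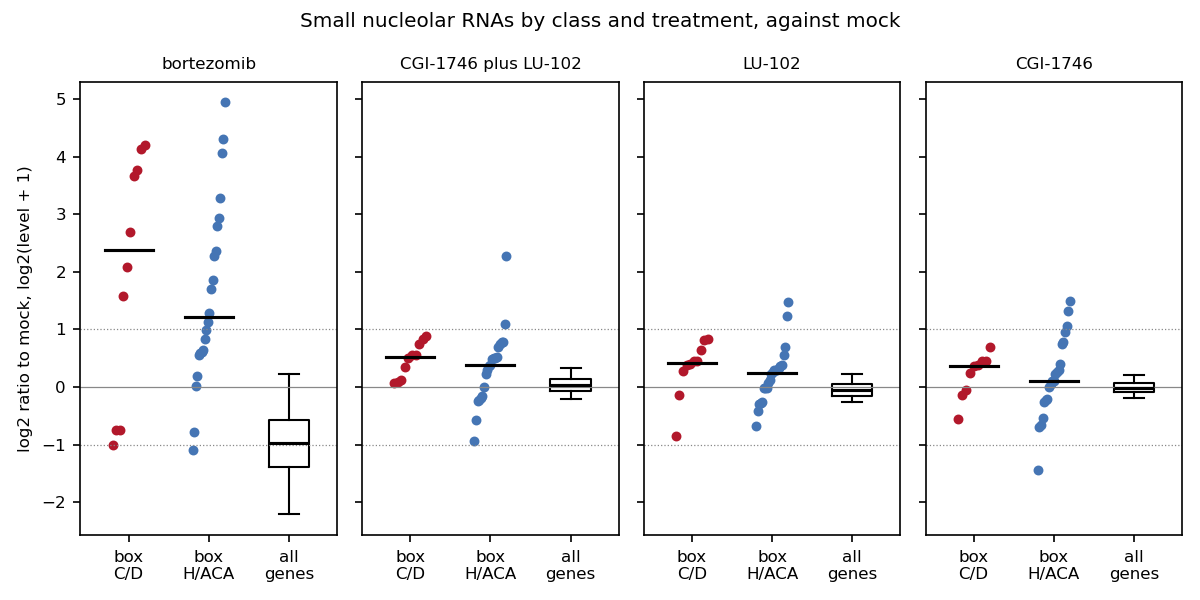
The log2 ratio to mock (log2 of level + 1) of each box C/D (red) and box H/ACA (blue) member by treatment, with a bar at the median, beside all genes compared as a box of the middle 50% with whiskers from the 5th to the 95th percentile. With bortezomib the class medians of 2.39 and 1.21 stand above an all-gene median of -0.98, and with the other treatments the class medians lie between 0.10 and 0.52.

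With bortezomib most host genes stood below mock while the RNAs they hold stood above it. Of the 32 members 20 lie within the span of a gene of the table on the same strand or, for SNORD133, on an unstated strand, and these have 15 hosts. With bortezomib 11 of the 15 hosts were 2-fold or more lower and none was higher, where 48.1% and 1.38% of all genes were, and their median of -1.11 on the log2 scale was near the -0.98 of all genes. Set against the median gene, 3 hosts were 2-fold or more lower, EIF4A1, EIF4G2 and IPO7, where 7.83% of all genes were. On that measure 1 host was higher, EIF4A2, where 7.52% of all genes were. The member stood above its host in 17 of 20 pairs, SNORA73B, SNORA81 and SNORD133 being the exceptions. Of the 32 members 30 also stood above the median of all genes, so this count does not set hosts apart from other genes. The widest gap was that of SNORD97 at 4.13 and its host EIF4G2, a translation initiation factor gene, at -2.39. SNORD17 stood at 4.21 and SNX5, a sorting nexin gene, at -1.11, and SNORA38 stood at 2.94 and PRRC2A at -1.93. SNORA23, itself lower at -1.10, lay in IPO7, an importin gene that was at -2.28. The highest host was EIF4A2 at 0.23, with SNORA63 at 2.36 and SNORA81 at 0.02. Levels of hosts are summed over the whole gene, so transcription of a host and the stability of its messenger RNA were not told apart.

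**Figure D4:**
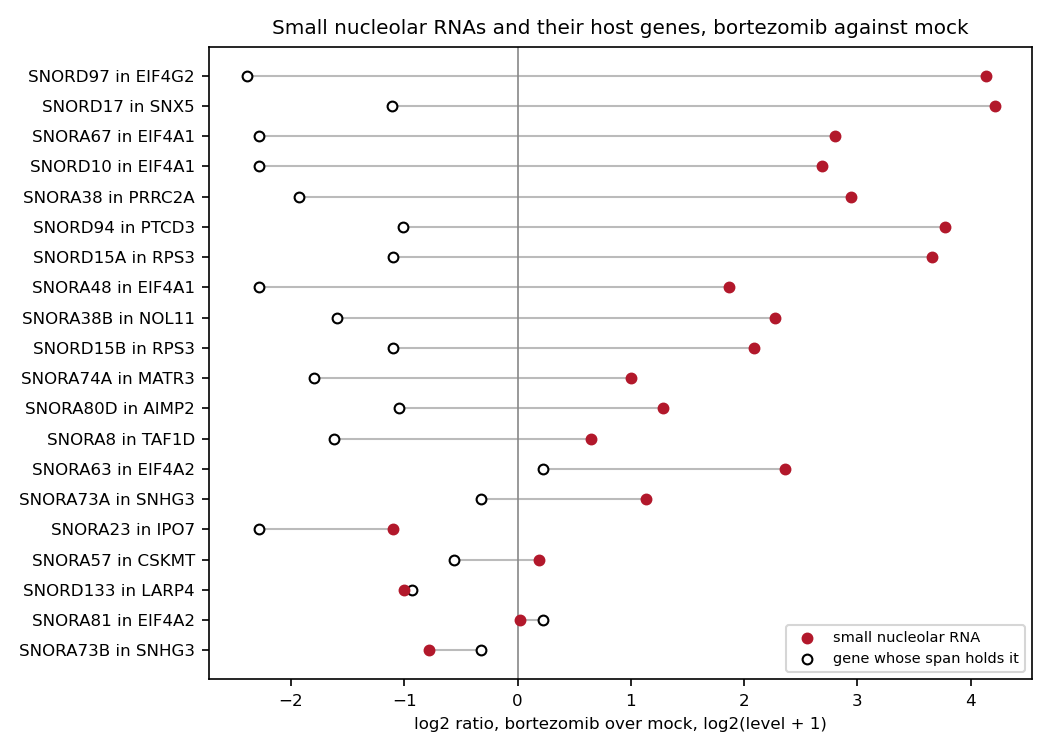
The log2 ratio with bortezomib against mock (log2 of level + 1) of 20 small nucleolar RNAs (filled) and of the gene whose span holds each (open), ordered by the gap between them. The RNA lies right of its host in 17 pairs, and the hosts lie between -2.39 (EIF4G2) and 0.23 (EIF4A2).

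The genes of the proteins that bind these RNAs were lower with bortezomib. Of the box C/D core genes 3 of 4 were measured, and all 3 were 2-fold or more lower. NOP56, a scaffold of the particle, had a level of 2.39 with bortezomib and 27.0 in mock, FBL, the fibrillarin gene, 0.713 with bortezomib and 9.64 in mock, and SNU13, which binds the guide RNA first, 0.641 with bortezomib and 4.21 in mock. Of the 4 H/ACA core genes 3 were 2-fold or more lower. NOP10 stood at -2.91, DKC1, the dyskerin gene, at -1.83 and GAR1 at -1.28, while NHP2 at -0.88 did not pass. Of 16 assembly genes 5 were measured. NOLC1, RUVBL2, TCOF1 and PIH1D1 were 2-fold or more lower, and PHAX, an adaptor in the transport of small capped RNAs, stood at 0.79, above mock. Of 17 genes of the nucleolus 11 were measured, and 6 were 2-fold or more lower, among them NPM1 at -1.49. Since 48.1% of all genes were 2-fold or more lower with bortezomib, the count of the nucleolus list is near the background, and the others were not tested. Set against the median gene, 7.83% of all genes were 2-fold or more lower and 7.52% higher. The 2-fold lower on that measure came to 2 of the 3 box C/D core genes and 1 of the 4 H/ACA core genes. They came to 1 of the 5 assembly genes and 0 of the 11 nucleolus genes, and PHAX was 2-fold or more higher. None of these genes was 2-fold different with another treatment.

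Other noncoding RNAs of the table differed among themselves with bortezomib. The U3 RNAs SNORD3A and SNORD3D stood at 5.21 and 5.85 on the log2 scale. The 13 small Cajal body RNAs, which guide modification of spliceosomal RNA, had a median of 0.24, with 4 2-fold or more higher and 4 lower. The 7 small nuclear RNAs had a median of 2.48, and the 4 7SL and 7SK RNAs stood at 0.61 to 1.40 with a median of 1.03. RMRP and RPPH1, the RNAs of 2 ribonucleases, were at -3.79 and -2.42. The 4 genes of the 45S precursor of ribosomal RNA stood at 3.71 to 4.69 on the log2 scale, and their part in the lower median of all genes was not tested. Of these, RNA45SN1 and RNA45SN5 had the same level in every library and are no separate measurements. A level above mock with bortezomib was thus not particular to the members.

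CGI-1746 plus LU-102 against mock showed small differences, most of them upward. Of the 31 members compared 2 were 2-fold or more higher, against 0.167% of the 4189 genes compared, and none was lower, against 0.0477%. The pair was SNORA71D, at 14 reads against 1 in mock and a ratio of 13.9 (2.11 to 586.6), and SNORA7B, at 7 against 2, whose interval of 0.660 to 34.2 holds no change. The median log2 ratio was 0.48, against 0.03 over all genes, with 0.52 for box C/D and 0.39 for H/ACA members. Other noncoding groups had medians of 0.70 (U3), 0.50 (7SL and 7SK RNAs), 0.42 (RMRP and RPPH1) and 0.36 (45S genes). The medians were 0.12 for small Cajal body RNAs and 0.10 for small nuclear RNAs. An upward shift was thus not particular to the members. The interval lay above 1 for 6 members and below 1 for none, where it lay above 1 for 18.8% of the 48 short RNAs. The abundant ones among them were close to each other: SNORD17 was 1.42-fold higher (1.19 to 1.70), SNORA63 1.42-fold (1.14 to 1.77), SNORA73A 1.40-fold (1.22 to 1.61), SNORA73B 1.29-fold (1.15 to 1.45) and SNORA23 1.47-fold (1.02 to 2.13). Summed over all members, reads were 1.32-fold higher (1.24 to 1.40), 1.27-fold for box C/D and 1.33-fold for H/ACA members.

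LU-102 against mock gave 2 members 2-fold or more higher, SNORA71A and SNORA71D, against 0.0715% of the 4193 genes compared, and none lower, against 0.0%. They rest on 8 and 7 reads, against 2 and 1 in mock, and both intervals hold no change. The median over the members was 0.29, against -0.06 over all genes. It was 0.88 for U3, 0.62 for 7SL and 7SK RNAs and 0.61 for RMRP and RPPH1. Small nuclear RNAs had 0.20, small Cajal body RNAs -0.07 and 45S genes -0.15. Among the abundant members SNORD133 was 1.33-fold higher (1.06 to 1.67), SNORA73A 1.27-fold (1.10 to 1.46), SNORD17 1.22-fold (1.01 to 1.48) and SNORA73B 1.20-fold (1.07 to 1.35). SNORD15B was 1.84-fold lower, at 43 reads against 78 in mock and a ratio of 0.543 (0.366 to 0.799). The summed reads of the members were 1.18-fold higher (1.11 to 1.26), 1.18-fold in either class. The intervals above 1 came to 4, and 16.7% of the 48 short RNAs had such an interval, while 1 lay below 1, against 4.17%.

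CGI-1746 against mock gave 3 of 30 members 2-fold or more higher, SNORA38, SNORA71A and SNORA71D, against 0.119% of the 4186 genes compared, and 1 lower, SNORA81, against 0.0478%. SNORA38 had 34 reads against 15 in mock, and SNORA81 4 against 16. SNORA71A had 10 reads against 2 (ratio interval 1.06 to 46.5), and SNORA71D had 6 against 1, where the bounds of 0.721 and 273.4 enclose 1. SNORD17 was 1.29-fold higher (1.07 to 1.55), and SNORD15B 1.49-fold lower at a ratio of 0.673 (0.466 to 0.966). SNORA73A, at 0.999 (0.860 to 1.16), and SNORA73B, at 1.03 (0.914 to 1.17), were close to 1 with narrow intervals. The median over the members was 0.24, against -0.02 over all genes, and the summed reads were 1.08-fold higher (1.01 to 1.15). The medians of these other noncoding groups ran from 0.03 for 7SL and 7SK RNAs to 0.22 for small nuclear RNAs. In all, the interval lay above 1 for 3 members and below 1 for 2, where 10.4% and 4.17% of the 48 short RNAs had such intervals.

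**Figure D5:**
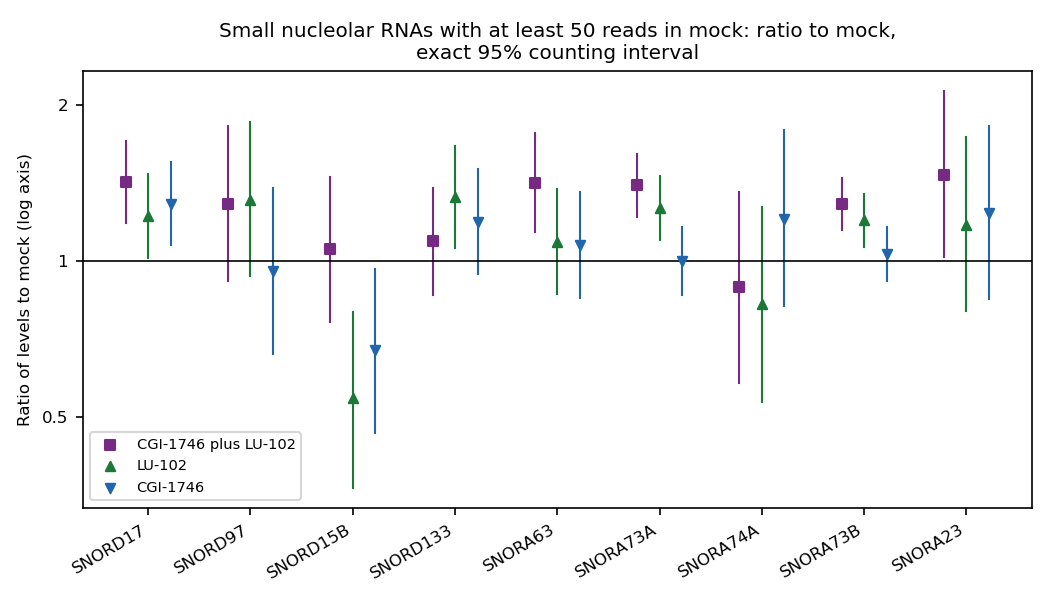
Ratio of levels to mock (log axis) with exact 95% counting intervals for the 9 members with at least 50 reads in mock, for CGI-1746 plus LU-102, LU-102 and CGI-1746. SNORD15B lies below 1 with LU-102 (0.543) and with CGI-1746 (0.673) and at 1.05 with both, and the interval of SNORA63 lies above 1 with both inhibitors and holds 1 with either alone.

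The combination was also set against each single agent. These comparisons share libraries with those against mock, so they are no independent evidence. Against LU-102, SNORA67 and SNORA79B were 2-fold or more higher in the combination library, where 0.143% of the 4193 genes compared were, and none was lower, against 0.0%. Both rest on few reads, 19 against 8 and 7 against 2, with intervals that hold no change, and neither passed 2-fold when set against the median gene, at 0.97 and 0.99. SNORD15B was 1.94-fold higher in the combination library than with LU-102 (1.33 to 2.87), and SNORA63 1.30-fold (1.05 to 1.61). Their 2 intervals lay above 1 and those of no member below it, where 10.4% and 6.25% of the 48 short RNAs had such intervals. Against CGI-1746 the count of members past 2-fold was 0 in either direction, against 0.0715% and 0.0238% of the 4193 genes compared. Set against the median gene, SNORA40B, at -0.96 before that step and on 1 read against 4, was just past 2-fold lower. SNORD15B was 1.57-fold higher in the combination library than with CGI-1746 (1.10 to 2.25), SNORA73A 1.40-fold (1.22 to 1.61), SNORA63 1.32-fold (1.06 to 1.64) and SNORA73B 1.25-fold (1.12 to 1.40). These 4 intervals lay above 1 and those of no member below it, where 12.5% and 2.08% of the 48 short RNAs had such intervals. The level of SNORD15B was thus lower with either single agent than with both, at 33.5 with both, 17.2 with LU-102 and 21.4 with CGI-1746, and the level with both was close to the 31.7 of mock.

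The authors' deposited table gives an FDR for each gene and comparison. In it, 15 of the 32 members had an FDR under 0.05 with bortezomib, 14 of them higher and SNORA73B lower, where 5.69% of all genes did. In the authors' deposited table none of the members had an FDR under 0.05 with CGI-1746 plus LU-102, with LU-102 or with CGI-1746. Of all genes 0.333%, 0.167% and 0.0714% had one, so the absence among 32 members is near the share of all genes. The authors' p-values differ by at most 2.6e-05 from a Poisson Wald test on the levels taken as counts of 1 library each. They thus compare libraries and not conditions.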

How the data were processed

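Total RNA from MDA-MB-231 cells was sequenced as 5 libraries, 1 per condition, with 150 bp paired reads and 40000000 reads planned for each, per the labels. The submitters' processing notes name Partek and hg38. The aligner, annotation, normalization and strand were not given in the sources used here. In all, 4202 genes were deposited by the authors, with a normalized signal per gene and library (a least squares mean, per the file headers) of unstated scale. The authors also deposited the ratio, the fold change as a signed score, the p-value and the FDR of each comparison. The 7 columns that repeat a library were identical to the columns used.

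Here, levels of short RNAs were turned into reads from RefSeq lengths (GRCh38.p14, and GENCODE 29 for SNORA81). Exact Clopper-Pearson intervals at 95% compare libraries and cover counting error only. Levels were compared on log2(level + 1), with a pseudocount of 1, and counted at 2-fold. No test across genes was run, since each condition has 1 library. The 2-fold rule was run on simulated data with more reads per unit of level than the members have. That check does not cover members on few reads. Members with a level of at least 5 in any library, or past 2-fold in any treatment, are given with all 5 levels, and the rest by range and count. The members, lists and alternatives were chosen with earlier results of these data known. A host is a gene whose GENCODE 29 span on the same strand holds the member. Python 3.11.15, numpy 2.4.6, pandas 2.3.3, scipy 1.17.1, biopython 1.88 and matplotlib 3.10.9 were used.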

Additional observations from a re-analysis of the deposited data

How the results depend on the processing

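No paired analysis was possible because each condition has 1 library. No member past 2-fold changed direction under any alternative run. With bortezomib, the 19 higher members stayed within 1.5 times under every alternative except leaving out 12 members that overlap an exon of another gene, which left 12 higher of 20. This alternative, leaving out members listed through their bortezomib level, and counting the SNORD141 pair once were chosen after the data were seen. The 2 lower members with bortezomib became 4 with a pseudocount of 0.1, and 0 with a pseudocount of 5, with median-of-ratios scaling and relative to the all-gene median. The median of all genes with bortezomib, -0.98, was -0.44 with median-of-ratios scaling, -0.38 with a pseudocount of 5, -1.53 with a pseudocount of 0.1 and -1.43 with a level of at least 5. The median over all members, 1.65, ran from 1.13 with a pseudocount of 5 to 2.63 relative to the all-gene median. The H/ACA median of 1.21 with bortezomib was 1.56 with a pseudocount of 0.1, 0.76 with a pseudocount of 5, 2.27 with a level of at least 5, 2.06 with median-of-ratios scaling, 2.19 relative to the median and 2.07 with at least 10 reads. The ratio of the summed box C/D reads with bortezomib, 11.1, was 2.63 without SNORD17 and SNORD97, left out after the data were seen. The box C/D median of 2.39 ran from 1.97 with a pseudocount of 5 to 3.37 relative to the all-gene median. One alternative left out the 9 members whose symbol differs from that of another only in its last letter, which kept SNORA22C, SNORA38B and other lettered members that have no such partner.

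The small counts with the other treatments depend on these settings. With CGI-1746 plus LU-102 the 2 higher members became 6 with a pseudocount of 0.1 or by intervals of reads, and 1 with a pseudocount of 5, a level of at least 5, median-of-ratios scaling, at least 10 reads or without these 9. The 0 lower became 1 with a pseudocount of 0.1, and the median was 0.28 with a pseudocount of 5. With LU-102 the 2 higher became 5 with a pseudocount of 0.1, 4 by intervals, and 0 with a pseudocount of 5, a level of at least 5, at least 10 reads or without these 9, and the 0 lower became 1 by intervals. With CGI-1746 the 3 higher became 6 with a pseudocount of 0.1, 0 with a pseudocount of 5, and 1 with a level of at least 5 or without these 9. The 1 lower became 2 with a pseudocount of 0.1 or by intervals, and 0 with a pseudocount of 5 or without members that overlap an exon. Relative to the all-gene median, also tried after the data were seen, the 2 higher members of the combination against LU-102 became 0, and the 0 lower against CGI-1746 became 1. Why counts moved was not tested beyond the smaller number of members compared. At this depth 16 to 18 members had fewer than 10 reads in each library other than bortezomib. Of the members with fewer than 10 reads both in the library and in mock, those past 2-fold had intervals that hold 1, namely 1 with CGI-1746 plus LU-102, 2 with LU-102 and 1 with CGI-1746.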
